A study of Homo sapiens with 2 samples.

Results

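The expression of 10 transcription regulators of early blood formation was compared between wild-type (WT) and MEIS2-/- cells. They were TAL1 and its close relative LYL1, their partners LMO2, LDB1, TCF3 and TCF12, and the early hematopoietic factors GFI1, RUNX1, HHEX and MYB. The genes were chosen by name, leaving aside the GATA and ETS factors, and all 10 were present among the 17397 genes of the deposited tables. Both libraries came from the established human embryonic stem cell line H1 at day 4 of hematopoietic differentiation. In both genotypes, differentiation began with 2 days in activin A (50 ng/ml) plus BMP4 (40 ng/ml) and went on with 2 days in VEGF (40 ng/ml) plus bFGF (50 ng/ml). MEIS2 had been disrupted in H1 with a lentiviral CRISPR/Cas9 vector, puromycin selection and expansion of colonies from single cells, so a clonal line stands for the MEIS2-/- genotype. The sources used here do not name the sequenced clone and do not say whether the WT cells had carried a vector. Each genotype was represented by 1 library, so no difference given here has a replicate check or a p-value within these data. Separately, the study reported lower TAL1 in MEIS2-/- cells by real-time PCR at a later day of differentiation.

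TAL1 is a basic helix-loop-helix (bHLH) protein that binds DNA as a heterodimer with a broadly expressed E protein such as TCF3 or TCF12. The LIM-only protein LMO2 and the scaffold LDB1 join this dimer to a neighbouring GATA factor, and the assembly acts in hemogenic endothelium and blood progenitors. LYL1 has a bHLH domain very like that of TAL1 and can enter the same complex. RUNX1 and GFI1 act when endothelial cells turn into blood cells, HHEX is a homeobox factor of hematopoietic and endothelial precursors and of endoderm, and MYB sustains definitive blood progenitors.

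The deposited values were FPKM, fragments scaled by transcript length and by the library's total, so that levels can be compared between genes. Log2 fold changes set the MEIS2-/- value over the WT value, with 0.1 FPKM added to both, and a gene was counted as lower or higher at a change of at least 2-fold on that scale. MEIS2 itself was listed at 10.85 FPKM in WT and 3.44 FPKM in MEIS2-/- cells. In all, 13075 genes that reached 1 FPKM in either library were compared, and their median log2 fold change was 0.12. Of the 10 genes, 9 were compared, each above 1 FPKM in both libraries, and RUNX1 was below 1 FPKM in both. Levels of endothelial markers were mixed. KDR was listed at 323.77 FPKM in WT and 61.98 FPKM in MEIS2-/- cells, but the defining marker PECAM1 at only 1.53 and 0.93 FPKM. EMCN, at 0.11 and 0.03 FPKM, and ROBO4, at 0.05 and 0.09 FPKM, were under 1 FPKM in both libraries. Of 9 blood cell markers with values, 8 were under 5 FPKM in both libraries, among them SPN, which encodes CD43, at 1.84 and 1.16 FPKM and PTPRC, which encodes CD45, at 0.45 and 0.89 FPKM. The exception was LAPTM5, a lysosomal membrane protein gene of blood cells, at 24.11 FPKM in WT and 3.78 FPKM in MEIS2-/- cells.

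The tissue-restricted part of the TAL1 complex was lower in MEIS2-/- cells, and its broadly expressed part was not. Of the 6 complex genes, TAL1, LYL1 and LMO2 fell by more than 2-fold, while LDB1, TCF3 and TCF12 stayed within 2-fold. Of the 4 early hematopoietic factors, GFI1 and HHEX fell, MYB was nearly the same in both libraries and RUNX1 was too low to compare. In all, 5 of the 10 genes were at least 2-fold lower and 0 were at least 2-fold higher. Across all compared genes, 7.97% were lower and 7.84% were higher by the same rule. The study itself had named TAL1 and GFI1 among genes lower in this comparison, so the count for the 10 genes is not independent of its results. The 5 lower genes together had 144.08 FPKM in WT and 44.82 FPKM in MEIS2-/- cells, or 31.1% of the WT sum. The other 5 genes had 184.27 FPKM and 189.55 FPKM, or 103% of the WT sum, most of it from TCF3 and LDB1. The genes were split by their own change, so the contrast between these sums follows from the split. The median log2 fold change was -1.33 over the 9 compared genes and -0.73 over all 10, and no compared gene of the set lay between -1.33 and -0.14. In bulk RNA, fewer cells that express a gene and less of its RNA per cell cannot be told apart, and this applies to every fall described here. By flow cytometry at day 4, the study itself reported a smaller population of hemogenic endothelial progenitors with MEIS2 deletion. The part of that difference in these falls was not tested.

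**Figure D1:**
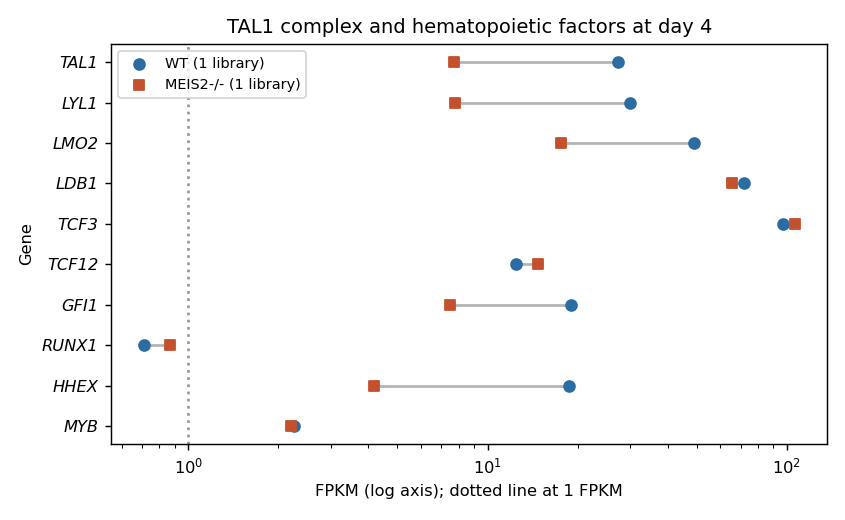
FPKM (log axis) of the 10 genes in the WT library (circles) and the MEIS2-/- library (squares), with 1 library per genotype and no error bars. TAL1, LYL1, LMO2, GFI1 and HHEX have the square well to the left of the circle, whereas LDB1, TCF3, TCF12 and MYB have both symbols close together and RUNX1 lies left of the dotted line at 1 FPKM.

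TAL1, listed under NCBI Gene number 6886 and located on chromosome 1, was measured at 27.37 FPKM in WT and 7.71 FPKM in MEIS2-/- cells. It kept 28.2% of its WT level, which is a log2 fold change of -1.81. LYL1, listed under number 4066 on chromosome 19, was measured at 29.93 FPKM in WT and 7.81 FPKM in MEIS2-/- cells, with a log2 fold change of -1.92. The paralogs therefore stood at nearly the same level as each other in each library, and the ratio of TAL1 to LYL1 was 0.914 in WT and 0.987 in MEIS2-/- cells. LYL1 was not higher where TAL1 was lower. In the order of falls among the 13075 compared genes, LYL1 ranked 278 and TAL1 ranked 323. In WT cells 83.4% of all listed genes had a lower FPKM than TAL1, and in MEIS2-/- cells 57.7% did. A further relative, TAL2, was listed at 0.77 and 0.50 FPKM, under the level needed for comparison.

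Over all compared genes, the 3 whose values lay closest to those of TAL1 were FZD2, which encodes a WNT receptor, PPP1R13L, which encodes an inhibitor of p53, and LYL1. Closeness was the Euclidean distance over log2(FPKM + 0.1) in the 2 libraries, which was 0.07 for FZD2, 0.12 for PPP1R13L and 0.13 for LYL1. With only 2 libraries this likeness says no more than that the level and the fall were alike.

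**Figure D2:**
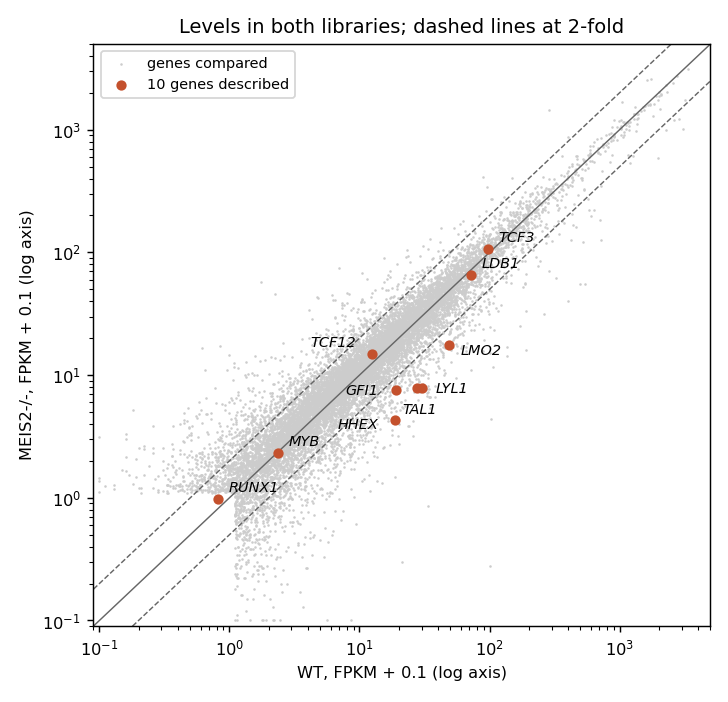
FPKM plus 0.1 in MEIS2-/- cells (y axis, log) against WT cells (x axis, log) for the 13075 compared genes (grey) and the 10 genes described (red), with a solid line at equal values and dashed lines at 2-fold. TAL1, LYL1, LMO2, GFI1 and HHEX lie under the lower dashed line, and the other 5 genes lie close to the solid line.

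LMO2, the bridging protein of the complex, is listed under number 4005 on chromosome 11. It was measured at 49.09 FPKM in WT and 17.64 FPKM in MEIS2-/- cells, and its log2 fold change was -1.47. By difference in FPKM this was the largest fall of the 10 genes, at -31.45 FPKM, because LMO2 was the highest of the 5 lower genes in WT cells. LDB1, the scaffold that LMO2 binds, is listed under number 8861 on chromosome 10. It was measured at 72.13 FPKM in WT and 65.38 FPKM in MEIS2-/- cells, and its log2 fold change was -0.14. LMO2 was thus lower and its scaffold was close to its WT level, and the ratio of LMO2 to LDB1 went from 0.681 to 0.27.

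Most of the other genes that serve the same bridge stayed within 2-fold. The list held 8 genes, namely the remaining LMO, LDB and SSBP genes and RLIM, which encodes a ubiquitin ligase for LDB1. Of these, 7 were compared, and 5 stayed within 2-fold. There was 1 at least 2-fold lower and 1 at least 2-fold higher, beside 7.97% and 7.84% over all compared genes. Their median log2 fold change was 0.09. LDB2, the paralog of LDB1, was lower, at 28.60 FPKM in WT and 8.73 FPKM in MEIS2-/- cells. LMO4, a relative of LMO2, was higher, at 11.03 FPKM in WT and 24.86 FPKM in MEIS2-/- cells. LMO4 was thereby below LMO2 in WT cells, at a ratio of 0.225, and above it in MEIS2-/- cells, at a ratio of 1.41. SSBP3, whose product protects LDB1 from degradation, was listed at 95.21 and 101.37 FPKM, and SSBP4 at 85.91 and 45.80 FPKM, which is short of 2-fold.

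TCF3 and TCF12 encode E proteins, the obligate partners of TAL1 and LYL1. TCF3, listed under number 6929 on chromosome 19, was the highest of the 10 genes in both libraries, at 96.73 FPKM in WT and 106.36 FPKM in MEIS2-/- cells. TCF12, listed under number 6938 on chromosome 15, was measured at 12.44 FPKM in WT and 14.74 FPKM in MEIS2-/- cells. Their log2 fold changes were 0.14 and 0.24, close to the median of 0.12 over all compared genes. TCF4, the E protein gene outside the chosen set, was listed at 8.14 and 6.81 FPKM. With the E proteins near their WT level, the summed TAL1 and LYL1 mRNA went from 0.488 of the summed mRNA of the E proteins TCF3, TCF12 and TCF4 in WT cells to 0.121 in MEIS2-/- cells.

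ID proteins bind E proteins and keep them from DNA. The ID1, ID2, ID3 and ID4 genes summed to 1428.67 FPKM in WT and 1359.86 FPKM in MEIS2-/- cells, and each changed by less than 2-fold. ID1 was the highest, at 664.99 FPKM in WT and 837.65 FPKM in MEIS2-/- cells, and ID3 came next, at 529.13 and 321.63 FPKM. The ratio of ID to E protein mRNA was 12.2 in WT and 10.6 in MEIS2-/- cells. The ratio of ID mRNA to TAL1 and LYL1 mRNA was 24.9 and 87.6, a rise that came from the fall of TAL1 and LYL1. These are ratios of mRNA levels without an error, since sequencing depth is unknown here, and protein was not measured here.

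GFI1 encodes a zinc finger repressor that shuts down endothelial genes in cells turning to blood. It is listed under number 2672 on chromosome 1 and was measured at 18.95 FPKM in WT and 7.49 FPKM in MEIS2-/- cells, with a log2 fold change of -1.33. GFI1 had the smallest fall of the 5 lower genes, and ranked 656 in the order of falls. Its paralog GFI1B was listed at 0.65 and 0.77 FPKM, so GFI1 made up nearly all of the mRNA of this pair in both libraries. The products of the LSD1 and CoREST corepressor genes are recruited by GFI1 and by TAL1. All 11 were compared, 0 passed 2-fold in either direction, beside 7.97% lower and 7.84% higher over all compared genes, and their median log2 fold change was 0.04. Among them PHF21A was listed at 8.61 and 4.53 FPKM, RCOR2 at 66.13 and 38.16 FPKM and RCOR3 at 6.35 and 9.77 FPKM. KDM1A, which encodes LSD1 itself, was listed at 93.46 FPKM in WT and 101.68 FPKM in MEIS2-/- cells.

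HHEX, listed under number 3087 on chromosome 10, was measured at 18.74 FPKM in WT and 4.17 FPKM in MEIS2-/- cells. With a log2 fold change of -2.14 it had the largest fall of the 10 genes and ranked 201 in the order of falls. It was the only one of them at least 4-fold lower, a fall shared by 1.84% of all compared genes. HHEX is also a gene of endoderm, and the endoderm markers went the other way. Of 11 visceral endoderm markers compared, 11 had a higher value in the MEIS2-/- library, with 9 past 2-fold, beside 7.84% of all compared genes. Of these 9, AFP, APOB, TF and TTR were under 1 FPKM in WT and passed the filter only through the MEIS2-/- library, which fixed their direction. Of the 7 markers that reached 1 FPKM in both libraries, 5 were at least 2-fold higher. The summed level of the markers was 455.54 FPKM in WT and 1085.33 FPKM in MEIS2-/- cells. APOA1, at 401.38 and 879.13 FPKM, carried most of both sums and of their difference. The TLE corepressors, which HHEX binds, showed no common direction. Of 5 compared, 1 was at least 2-fold higher, beside 7.84% of all compared genes, and the median log2 fold change was -0.07. The higher gene was TLE1, at 12.02 FPKM in WT and 28.69 FPKM in MEIS2-/- cells.

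RUNX1 and MYB were low in both libraries. RUNX1, listed under number 861 on chromosome 21, was measured at 0.71 FPKM in WT and 0.87 FPKM in MEIS2-/- cells, and no fold change was counted for it. MYB, listed under number 4602 on chromosome 6, was measured at 2.26 FPKM in WT and 2.20 FPKM in MEIS2-/- cells. Neither gene was lower alongside TAL1, but at these levels and with unknown depth a change could have gone undetected. CBFB, which encodes the partner that stabilizes RUNX proteins on DNA, was listed at 18.72 and 21.94 FPKM, far above RUNX1 in both libraries. RUNX3 was listed at 1.69 and 0.60 FPKM and passed the filter only through the WT library. MYBL2, the relative of MYB that serves cycling cells, was at least 2-fold higher in MEIS2-/- cells, at 82.32 FPKM in WT and 198.71 FPKM in MEIS2-/- cells.

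Ordered by level in WT cells, the genes ran from TCF3 through LDB1, LMO2, LYL1, TAL1, GFI1, HHEX, TCF12 and MYB to RUNX1. In MEIS2-/- cells the order was TCF3, LDB1, LMO2, TCF12, LYL1, TAL1, GFI1, HHEX, MYB and RUNX1. The single change of place was that of TCF12, which stood below LYL1, TAL1, GFI1 and HHEX in WT cells and above these 4 genes in MEIS2-/- cells. Without replicates, it cannot be said which neighbours in either order differ beyond their spread, and TAL1 and LYL1 in both libraries, as well as GFI1 and HHEX in WT, lay close together.

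The RefSeq table of promoters held a window for 9 of the 10 genes, and the bases just before the annotated start are shown for 4 of the genes that fell, because these genes were lower together. The windows are on GRCh38.p14 and are written 5′ to 3′ along the gene. Capitals mark matches to any of the motifs searched, on either strand. The TAL1 stretch is chr1:47232336-47232585 (minus strand), the GFI1 stretch is chr1:92486926-92487175 (minus strand) and the HHEX stretch is chr10:92689705-92689950 (plus strand). For LYL1 only 30 bases are shown, chr19:13102869-13102898 (minus strand), since a longer LYL1 transcript is annotated across its window.
TAL1: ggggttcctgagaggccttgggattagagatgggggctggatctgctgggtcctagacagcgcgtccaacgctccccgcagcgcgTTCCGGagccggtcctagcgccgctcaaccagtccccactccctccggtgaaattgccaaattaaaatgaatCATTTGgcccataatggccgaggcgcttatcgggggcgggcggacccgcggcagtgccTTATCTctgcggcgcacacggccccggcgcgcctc
LYL1: tcagccaggctccTTATCAggcgcggccag
GFI1: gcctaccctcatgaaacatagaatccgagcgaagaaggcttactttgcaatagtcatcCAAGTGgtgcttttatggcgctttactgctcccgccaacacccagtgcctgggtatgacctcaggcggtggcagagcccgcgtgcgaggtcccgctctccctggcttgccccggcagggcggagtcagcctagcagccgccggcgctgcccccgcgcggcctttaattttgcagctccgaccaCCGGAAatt
HHEX: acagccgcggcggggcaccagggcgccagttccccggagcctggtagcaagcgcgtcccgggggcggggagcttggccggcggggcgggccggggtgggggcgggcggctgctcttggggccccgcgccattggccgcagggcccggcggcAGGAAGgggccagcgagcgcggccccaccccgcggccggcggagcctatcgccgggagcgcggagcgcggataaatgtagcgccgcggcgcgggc

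The motifs were the E-box CANNTG bound by bHLH dimers with its special forms, the CAGATG E-box and the CAGCTG E-box, the GATA motifs AGATAA and TGATAA, the ETS motifs CCGGAA and AGGAAG, the RUNX motif TGTGGT and the MEIS motif TGACAG. Both special forms are contained in the general E-box. TAL1 and LYL1 each had a GATA motif close to the start, read on the other strand. In TAL1 it was AGATAA, whose first base in the printed sequence lay 35 bases before the start, and in LYL1 it was TGATAA, 27 bases before the start. Over all 35116 promoter windows, 9.17% held AGATAA and 6.66% held TGATAA in the 250 bases before the start. TAL1 and GFI1 held the ETS letters CCGGAA, present in 14.5% of all windows, and HHEX held AGGAAG, present in 28.7%. TAL1 and GFI1 each held an E-box of the general form, present in 61.8% of all windows. Over the 16 windows of the 9 genes, alternative starts included, 5 held an E-box, 1 held AGATAA, 1 held TGATAA, 4 held CCGGAA, 5 held AGGAAG and 2 held TGTGGT. TAL1 has a second annotated start inside the gene, and the window there, which is not shown, held the RUNX letters TGTGGT, present in 10.98% of all windows. The MEIS letters TGACAG were found in 0 of the 16 windows and in 13.0% of all windows. The CAGATG E-box and the CAGCTG E-box were also found in 0 of the 16, and in 12.2% and 14.0% of all windows. These matches describe letters in a short stretch, and the data hold no measurement of binding.

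The genes beside each of the 10 on its chromosome were compared next. For each gene the 2 nearest listed genes on either side were taken. Of the 20 neighbours of the 5 lower genes, 17 were compared, 0 were at least 2-fold lower and 1 was at least 2-fold higher, beside 7.97% and 7.84% over all compared genes, and their median log2 fold change was 0.11. The neighbours of TAL1 were CYP4A22 and PDZK1IP1 on one side and STIL and CMPK1 on the other. STIL, which encodes a centriole protein, was listed at 6.67 FPKM in WT and 6.14 FPKM in MEIS2-/- cells, CMPK1 at 12.74 and 12.79 FPKM, and the first pair were under 1 FPKM in both libraries. NFIX, next to LYL1 on one side, was not compared, at 0.30 and 0.08 FPKM. TRMT1, next to LYL1 on the other side, was at 28.98 FPKM in WT and 36.44 FPKM in MEIS2-/- cells, and CAPRIN1, next to LMO2, was at 46.99 and 65.69 FPKM. The 1 higher neighbour of the 5 lower genes was CYP26C1, near HHEX, at 0.45 FPKM in WT and 4.51 FPKM in MEIS2-/- cells. CYP26C1 encodes an enzyme that breaks down retinoic acid. It passed the filter only through the MEIS2-/- library, which fixed its direction. Of the 20 neighbours of the other 5 genes, 16 were compared. Of these, 2 were at least 2-fold lower and 1 was at least 2-fold higher, beside the same shares of all compared genes. Their median log2 fold change was 0.22. CLIC6, 1 of the 2 lower, passed the filter only through the WT library, and MYZAP, the 1 higher, only through the MEIS2-/- library.

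**Figure D3:**
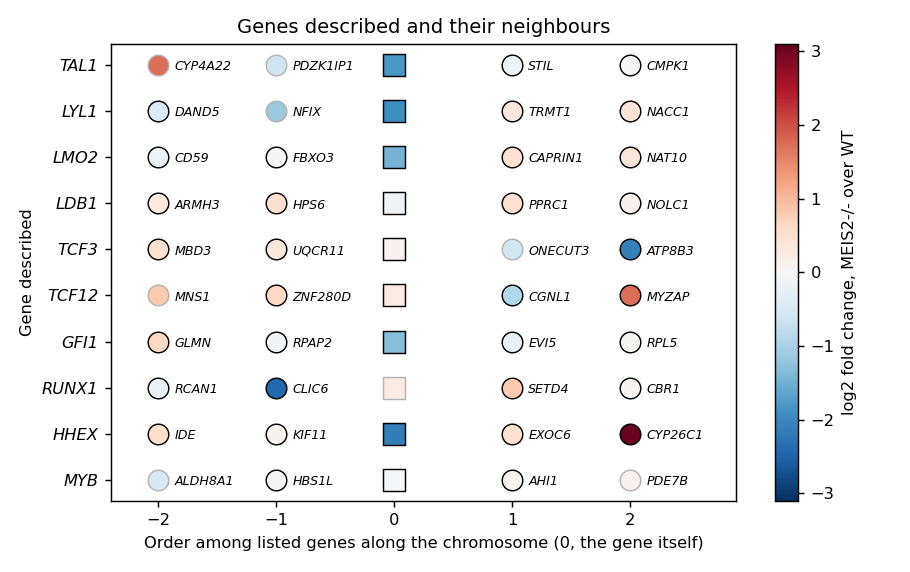
Log2 fold change (color, MEIS2-/- over WT, 1 library each) of the 10 genes described (squares) and of the 2 nearest listed genes on each side (circles, in order along the chromosome, not to distance); a grey outline marks a gene under 1 FPKM in both libraries. The squares of TAL1, LYL1, LMO2, GFI1 and HHEX are blue, and none of the 17 compared neighbours of these genes is at least 2-fold lower.

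TAL1, LYL1, LMO2 and RUNX1 belong, with GATA2, ERG and FLI1, to a group of 7 factors that bind the same regulatory regions in blood progenitors. GATA2, ERG and FLI1 were each at least 2-fold lower in MEIS2-/- cells. ERG was listed at 6.82 FPKM in WT and 1.43 FPKM in MEIS2-/- cells, and FLI1 at 16.78 and 5.90 FPKM. Thus the 6 factors that were compared were each at least 2-fold lower, beside 7.97% of all compared genes. RUNX1, below 1 FPKM in both libraries, was not compared. Among the 6 factors, TAL1, LYL1 and LMO2 had already been counted above. The study itself singled out TAL1, GATA2 and GFI1 among genes lower in this comparison, so this count is not independent of the choice.

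Of 13 further hematopoietic transcription factors, 7 were compared, with 0 at least 2-fold lower and 2 at least 2-fold higher, beside 7.97% and 7.84% over all compared genes. Their median log2 fold change was 0.41 over the 7 and -0.15 over all 13. ZBTB16, 1 of the 2 higher, was listed at 0.65 and 1.43 FPKM and passed the filter only through the MEIS2-/- library, so its direction was fixed by the filter. CEBPA, a factor of myeloid cells that is also active in liver and endoderm, was listed at 2.67 FPKM in WT and 7.02 FPKM in MEIS2-/- cells. KLF1, an erythroid factor, was listed at 6.88 and 4.04 FPKM, while GATA1, at 0.47 and 0.01 FPKM, and SPI1, at 0.48 and 0.15 FPKM, were too low to compare. The ETO family genes, whose products are corepressors of the TAL1 complex, all stayed within 2-fold on the scale with 0.1 FPKM added. RUNX1T1 was at the edge of this limit, at 1.87 FPKM in WT and 0.90 FPKM in MEIS2-/- cells, or 48.1% of its WT level. CBFA2T3 was listed at 1.78 and 1.30 FPKM, and CBFA2T2 had a higher value in MEIS2-/- cells, at 10.8 and 17.98 FPKM.

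A short list of genes known as targets of TAL1 in blood, endothelial or leukemic cells showed no common direction. Of 8 with values, 5 were compared. Among these, 1 was at least 2-fold lower and 2 at least 2-fold higher, beside 7.97% and 7.84% over all compared genes. Their median log2 fold change was 0.02. By gene set enrichment, the study itself reported that genes lower with MEIS2 deletion overlapped larger published sets of Tal1-dependent mouse genes. Those sets were not examined here. CDH5, which encodes VE-cadherin, was listed at 15.20 FPKM in WT and 5.02 FPKM in MEIS2-/- cells. KIT, the receptor of stem cell factor, was listed at 3.33 FPKM in WT and 10.02 FPKM in MEIS2-/- cells, and ARID5B at 2.23 and 5.80 FPKM. KIT and CDH5 thus went opposite ways while TAL1 was lower.

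**Figure D4:**
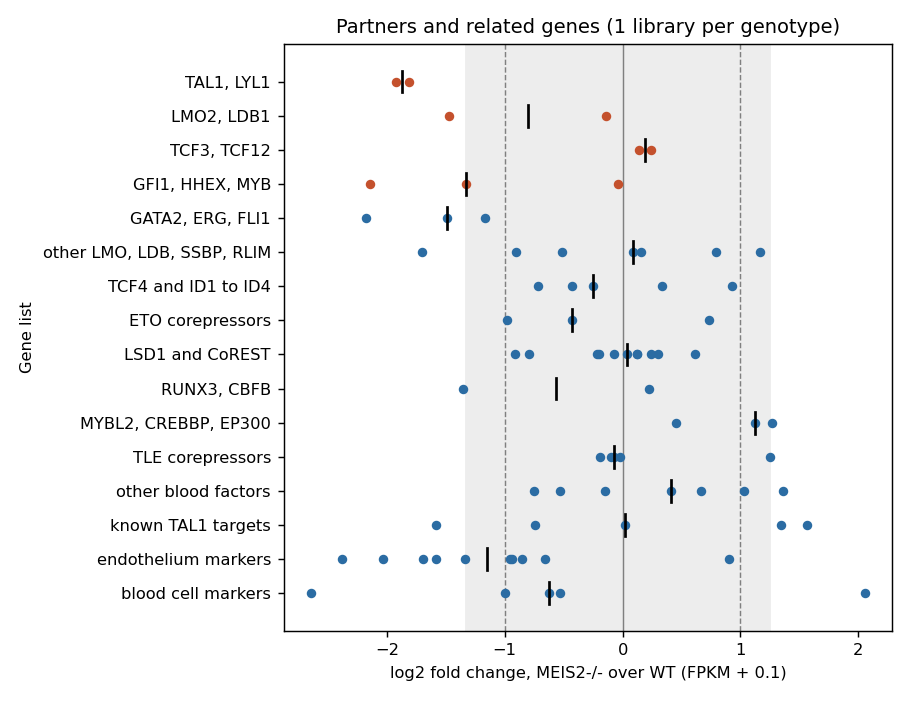
Log2 fold change (x axis, MEIS2-/- over WT, FPKM plus 0.1) of the compared genes of each list, with the genes described in red, other genes in blue and a black bar at each list's median; the grey band holds the middle 90% of all compared genes and dashed lines mark 2-fold. TAL1 and LYL1 lie left of the band at -1.81 and -1.92, TCF3 and TCF12 lie near 0, and the LSD1 and CoREST genes all lie within 2-fold.

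Summed levels of marker lists for several cell types also differed between the libraries, and not all in the same direction. These are levels in bulk RNA, which do not show that each of these cell types was present. For the counts that follow, 7.97% of all compared genes were at least 2-fold lower and 7.84% at least 2-fold higher. Among 12 endothelial markers the summed level was 829.25 FPKM in WT and 431.36 FPKM in MEIS2-/- cells. KDR, at 323.77 and 61.98 FPKM, and EGFL7, at 285.86 and 69.96 FPKM, had the largest falls in FPKM. Of 10 compared, 9 had a lower value and 5 were at least 2-fold lower, with a median log2 fold change of -1.15. SOX17, also a gene of endoderm, was the exception, at 141.01 FPKM in WT and 264.03 FPKM in MEIS2-/- cells. Markers of undifferentiated cells summed to 613.84 FPKM in WT and 1877.11 FPKM in MEIS2-/- cells. POU5F1, at 285.65 and 1454.14 FPKM, carried most of this difference. Of 6 compared, 5 had a higher value and 3 were at least 2-fold higher, while DNMT3B was lower, at 76.91 and 45.35 FPKM. SOX2 was at 0.09 and 0.15 FPKM. Cardiac mesoderm markers summed to 1114.68 and 830.17 FPKM, with 9 of 10 lower in value and 3 at least 2-fold lower. Of the 9 blood cell markers, 5 were compared, with 2 at least 2-fold lower (LAPTM5 and ITGA2B) and 1 at least 2-fold higher (HBE1). HBE1, an embryonic globin gene, was at 0.42 and 2.06 FPKM and passed the filter only through the MEIS2-/- library, which fixed its direction. The 9 markers summed to 35.41 FPKM in WT and 13.41 FPKM in MEIS2-/- cells, and the 8 without LAPTM5 to 11.30 and 9.63 FPKM, so LAPTM5 carried most of the difference. The part of these shifts in the falls of TAL1, LYL1, LMO2, GFI1 and HHEX was not tested.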

How the data were processed

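RNA-Seq of 1 WT and 1 MEIS2-/- library of H1-derived cells at day 4 was analysed. According to the labels, RNA was extracted with Trizol and libraries were made from 3 ug of total RNA with an Illumina TruSeq kit. The tables deposited by the authors give FPKM per gene, by NCBI Gene number, together with the RefSeq transcripts counted for the gene. The submitters' processing notes name RSEM, BWA, Bowtie and the build hg19, without versions or settings. RSEM shares ambiguous fragments among transcripts, and 8 of the 10 genes had several transcripts, up to 18 for TCF12, so each value is a sum over isoforms. No step that separates the strands is stated.

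Gene numbers were matched to RefSeq symbols (17365 of 17397). The FPKM values were used as deposited. Low values of single-transcript genes did not fall on whole-read steps (agreement 0.0649 in WT and 0.0484 in MEIS2-/- cells, on a scale where 1 is complete), so depth is unknown and no counting error is given. The filter was 1 FPKM in at least 1 library, the pseudocount was 0.1 FPKM and the threshold was 2-fold. Promoter sequences came from the RefSeq table on GRCh38.p14, and their exon overlap was checked in GENCODE annotation on GRCh38. Neighbours were ordered by that RefSeq annotation, which is not the build of the files, so gene coordinates are not given. The genes named are the 10 chosen, the genes of lists written by hand, MEIS2, the 2 nearest listed genes per side and the 3 genes closest to TAL1. Some genes of these lists are not reported here and were left out of the counts. The genes and lists were chosen with earlier results of these data known. Alternatives covered the pseudocount, the filter, the threshold and the scaling of the libraries. The software was Python 3.11.15 with pandas 2.3.3, numpy 2.4.6 and, for plots, matplotlib 3.10.9.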

Additional observations from a re-analysis of the deposited data

How the results depend on the processing

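With 1 library per genotype, no replicate could be left out, and depth limits every statement on RUNX1 and MYB. No paired analysis was possible because each genotype has 1 library. TAL1, LYL1, LMO2, GFI1 and HHEX were the 5 lower genes under each setting except the 4-fold threshold, under which 1 remained, HHEX. Their log2 fold changes ranged from -1.93 to -1.70 for TAL1, -2.04 to -1.81 for LYL1, -1.59 to -1.43 for LMO2, -1.44 to -1.23 for GFI1 and -2.25 to -1.93 for HHEX. The other genes stayed within 2-fold, with LDB1 from -0.26 to -0.12, TCF3 from 0.02 to 0.16, TCF12 from 0.13 to 0.27 and MYB from -0.15 to -0.02. The median log2 fold change of the compared genes of the set was -1.23 with a pseudocount of 1 FPKM, -1.34 with 0.01 FPKM, -0.73 without a filter, where RUNX1 enters, -1.40 with a filter at 5 FPKM, where MYB leaves, -1.44 with the median log2 ratio set to 0, -1.43 with scaling by the trimmed mean of log ratios and -1.31 with both libraries scaled to the same sum (TPM). Among all compared genes, counts of lower and higher genes were 693 and 623 with a pseudocount of 1 FPKM, 598 and 554 with a filter at 5 FPKM, 1890 and 2353 at 1.5-fold and 241 and 194 at 4-fold, against 1042 and 1025 as reported. The same counts were 1516 and 1567 without a filter, 1197 and 833 with the median log2 ratio set to 0 and 1179 and 853 with trimmed-mean scaling. The cause of these moves was not tested.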

Other observations

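E proteins also serve other class II bHLH factors, and most of those compared had a lower value in MEIS2-/- cells. Of 27 such genes written down, 21 had values and 12 were compared, 10 with a lower and 2 with a higher value. Of the 12, 6 were at least 2-fold lower and 1 was at least 2-fold higher, beside 7.97% and 7.84% over all compared genes. Their median log2 fold change was -1.15. Of the 6 lower genes, 2 (MESP2 and TWIST2) passed the filter only through the WT library, which fixed their direction. Of the 9 genes that reached 1 FPKM in both libraries, 4 were at least 2-fold lower and 1 was at least 2-fold higher. HAND2, a factor of heart and limb mesoderm, was listed at 44.27 FPKM in WT and 8.08 FPKM in MEIS2-/- cells, and its relative HAND1 at 357.53 and 265.24 FPKM. HAND1 was thus far above TAL1 and LYL1 as a possible partner of E proteins in both libraries. TCF21 was listed at 8.64 and 3.36 FPKM, TCF15 at 3.98 and 1.37 FPKM, and TWIST2 at 2.99 and 0.53 FPKM. MSC, which encodes musculin, was higher, at 1.44 FPKM in WT and 9.99 FPKM in MEIS2-/- cells.

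LIM homeodomain factors bind LDB1 as LMO2 does. Of 9 with values, 4 were compared, and 2 of these, LHX1 and ISL2, were at least 2-fold lower, beside 7.97% of all compared genes. ISL2 passed the filter only through the WT library, which fixed its direction, and of the 3 that reached 1 FPKM in both libraries, 1 was lower. LHX1, a factor of early mesoderm and endoderm, was listed at 20.61 FPKM in WT and 5.93 FPKM in MEIS2-/- cells, and ISL2 at 1.01 and 0.08 FPKM. ISL1, a factor of cardiac progenitors, was listed at 6.66 and 10.32 FPKM, which is short of 2-fold.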
